A study of Mus musculus with 2 samples.

Results

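Cytosolic ribosomal protein genes encode the protein parts of the ribosome that translates nuclear transcripts. Here they were taken as every gene whose symbol is Rpl or Rps followed by a number, with at most 1 trailing letter a, l or x, together with Rplp0, Rplp1, Rplp2 and Rpsa. That rule found 80 of 31053 genes, 49 with symbols starting in Rpl, for the large subunit, and 31 starting in Rps, for the small one. Of these, 4 (Rpl3l, Rpl10l, Rpl39l and Rps27l) are paralogs of a core protein. The ribosomal protein genes Rps3a1, Fau and Rack1, among others, carry other symbols and were handled apart. RNA was counted in single cells of mouse bone marrow (strain C57BL/6), sorted as Lineage-, c-Kit+ and Sca1-, a gate that holds committed myeloid, erythroid and megakaryocyte progenitors. There was 1 library labelled Runx1 KO, for which neither the number of mice nor the means of deletion is given in the sources used here, and 1 Control library, which pooled the marrow of 1 mouse of genotype Runx1f/f and 1 of genotype Runx1f/-. The Control pool thus held cells of a mouse with a germline mutation in 1 Runx1 allele. A label field speaks of embryos, whereas the tissue and extraction fields name hind-limb marrow, which was followed here.

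Every ribosome carries about 1 copy of each core protein, so the members are made in near-equal amounts and their transcripts are among the most abundant of a growing cell. Most of these transcripts begin with a C followed by a run of pyrimidines, the 5′ terminal oligopyrimidine (TOP) tract, through which growth signals such as mTOR set their translation. In blood formation the family is known for Diamond-Blackfan anaemia, a human failure of red cell production caused by loss of 1 copy of one of several members.

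The library labelled Runx1 KO held 7889 cells and 145590840 unique molecular identifiers (UMIs), each standing for 1 captured transcript, with a median of 16092 per cell. The Control library held 6906 cells and 162278272 UMIs, with a median of 21593.5 per cell. A mitochondrial share of 10% or more was seen in 4.12% of KO-labelled and 2.74% of Control cells, and 13 cell barcodes occurred in both. Of the sort markers, Kit had 100.3 and 113.9 counts per 1000000 UMIs (CPM) in the KO-labelled and Control libraries, and Ly6a, which encodes Sca1, 2.39 and 1.63 CPM. Runx1 itself had 361 CPM in the KO-labelled library and 143 CPM in Control, so UMIs from transcript 3′ ends do not check the deletion. The classes were those of the deposited annotation, each named by a gene. Pf4 had 3469 and 5116 CPM in the Pf4 class, Mpo 6264 and 6733 CPM in Gstm1/CD63, and Irf8 393 and 493 CPM in Ly86, in the KO-labelled and Control libraries. Some naming genes differed widely between the libraries or stood higher elsewhere. Car1 had 261 and 2034 CPM in the Car1 class and 716 and 3414 CPM in Hba-a2, Hba-a2 192 and 28.1 CPM in its own class, and Fcnb 12.4 and 32.4 CPM in the Fcnb class but 296 and 525 CPM in Ltf. With 1 library per group no test between the genotypes was possible. All intervals below are exact 95% intervals that cover counting error only, not the spread between mice.

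The members differ most in size, and the shortest coding sequence is shown because length is the feature along which the members parted between the libraries. Capitals mark its start and stop codons (GENCODE M21, GRCm38). Rpl41, a basic peptide of the large subunit, has a coding sequence of 78 bases (chr10:128548387-128548960, minus strand, introns left out).
Rpl41 coding sequence: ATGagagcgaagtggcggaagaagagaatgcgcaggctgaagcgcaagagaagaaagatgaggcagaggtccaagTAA

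Windows of 30 bases around the annotated start (RefSeq, GRCm38.p6), with 15 bases before it and 15 from it on, show how the annotated start sites differ. They belong to 4 of the members lowest in the KO-labelled library relative to Control (Rpl35, Rpl38, Rpl37 and Rps28) and 3 of the highest (Rpl12, Rps6 and Rpl5). Capitals mark a run of at least 8 C or T that comes within 10 bases of the start. They lie at chr2:39005117-39005146 (Rpl35, minus strand), chr11:114668565-114668594 (Rpl38, plus), chr15:5116598-5116627 (Rpl37, plus), chr17:33824548-33824577 (Rps28, minus), chr2:32961697-32961726 (Rpl12, plus), chr4:86857353-86857382 (Rps6, minus) and chr5:107900513-107900542 (Rpl5, plus).
Rpl35 start: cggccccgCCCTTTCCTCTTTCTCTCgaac
Rpl38 start: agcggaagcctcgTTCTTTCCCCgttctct
Rpl37 start: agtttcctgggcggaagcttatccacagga
Rps28 start: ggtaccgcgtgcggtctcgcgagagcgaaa
Rpl12 start: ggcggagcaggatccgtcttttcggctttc
Rps6 start: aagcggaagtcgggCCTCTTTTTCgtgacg
Rpl5 start: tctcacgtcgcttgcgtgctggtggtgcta
Such a run was present at the start of 28 of the 60 members with a promoter entry (46.7%), against 15.8% of all 27025 genes with one. The longest run near the start had 18 bases in Rpl35, 10 in Rpl38, 6 in Rpl37 and 4 in Rps28, and among the high members 7 in Rpl12, 10 in Rps6 and 3 in Rpl5. Runs of 8 or more were thus present at some of these annotated starts and absent from others in both sets. Annotated starts differ between sources: the Rpl37 window ends at 5116627, before the GENCODE gene start at 5116645. A short run here need not mean that a transcript lacks the tract. Within the 300 bases from 250 before to 50 after the start, on either strand, the ETS factor motif CCGGAAG lay in 25 members (41.7%) and in 9.93% of all genes. The YY1 motif AAGATGGC lay in 5 members (8.33%) and in 3.19% of all genes. TATAAA was present in 6 members (10.0%) and in 15.7% of all genes, and TGTGGT, the core bound by Runx proteins, in 5 members (8.33%) and in 18.9% of all genes. The motifs are counted separately and may overlap, and a match is a description of these letters only.

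Ribosomal protein transcripts made up a large and similar part of all UMIs in both libraries. They held 30.4% of UMIs in the KO-labelled library and 31.4% in Control, a ratio of 0.969. The median cell gave 31.1% of its UMIs to them in the KO-labelled library (quartiles 28.03% and 33.9%) and 32.1% in Control (29.7% and 34.6%), so the cells of the libraries overlapped broadly. With the 6 compared classes weighted equally the ratio was 0.990, closer to 1 than the pooled value.

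The 6 classes with at least 200 cells in each library, named by a gene in the deposited annotation, lay on both sides of 1. The CD34 class, of early progenitors, had shares of 32.1% (KO-labelled) and 32.0% (Control), a ratio of 1.002 (1.001 to 1.003). The erythroid Car1 class had 31.95% and 32.09%, and the later erythroid Hba-a2 class 29.6% and 29.3%. The Gstm1/CD63 class of neutrophil progenitors had 31.8% and 31.6%. The share was lower in the KO-labelled library in the megakaryocytic Pf4 class, with 27.5% and 28.6% (ratio 0.961, 0.959 to 0.963). It was also lower in the monocytic Ly86 class, with 30.7% and 31.8% (ratio 0.964, 0.963 to 0.965). Median depth per cell was 13028.5 UMIs in the KO-labelled and 18341.5 in the Control cells of the Pf4 class, and in cells of 10000 to 30000 UMIs alone the ratio there was 0.912. The ratios next to 1 turned with the processing: CD34 to 0.999 and Hba-a2 to 0.921 with each cell weighing the same, and Car1 to 1.018 without the 10 shortest members. The Pf4 class had the lowest share among the 6 in both libraries, and Hba-a2 the next lowest.

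**Figure D1:**
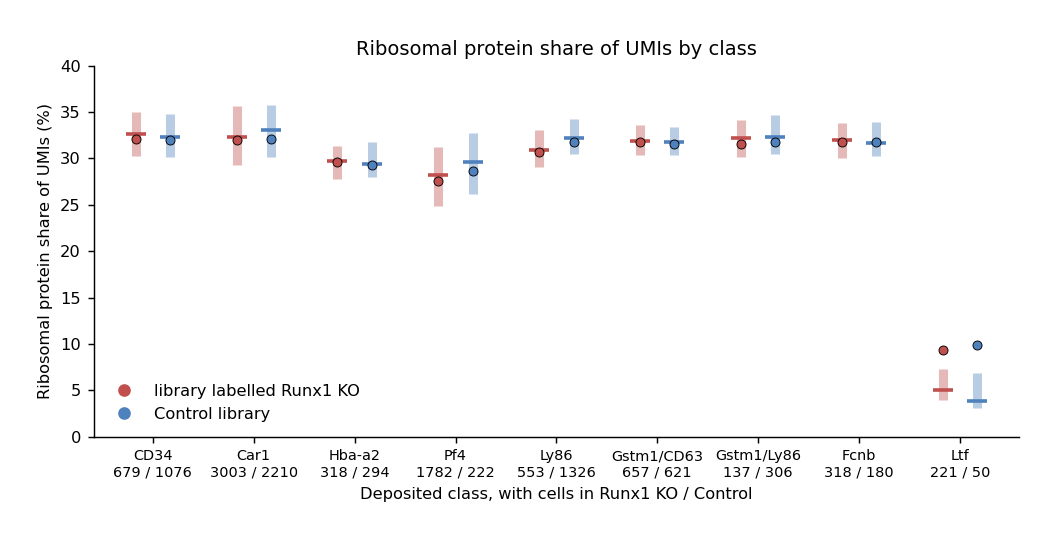
Share of UMIs in ribosomal protein genes (y axis, percent) in 9 deposited classes (x axis, with cell numbers), for the library labelled Runx1 KO on the left of each pair and Control on the right. Circles are the shares of summed UMIs, horizontal marks the median cell and bars the quartiles over cells; 8 classes lie between 27.5% and 32.1%, and the Ltf class lies at 9.36% and 9.92%.

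The late neutrophil class Ltf, named by the gene of the granule protein lactoferrin, stood far below every other class. It held 221 KO-labelled and 50 Control cells, and ribosomal protein genes took 9.36% (9.32 to 9.40) of its UMIs in the KO-labelled library and 9.92% (9.84 to 9.99) in Control. Its median cell was at 5.02% in the KO-labelled library and 3.90% in Control, below the summed share in both. In the KO-labelled library 190 of 221 cells (86.0%) were under 10%, and in Control 39 of 50 (78%). Cells at 20% or more numbered 14 in the KO-labelled library and 5 in Control, and they held 13.8% and 23.5% of the class's UMIs. Both limits were chosen after the values were seen. The Fcnb class, whose cells carried the granule gene Mpo at 6772 CPM in the KO-labelled library and 7438 CPM in Control, had shares of 31.8% and 31.7%. The 7 late neutrophil markers (Ltf, Camp, Ngp, Lcn2, S100a8, S100a9 and Fcnb) took 34.6% of the UMIs of the Ltf class in the KO-labelled library and 35.8% in Control, against 0.163% and 0.259% in Fcnb. The median mitochondrial share of Ltf cells was 0.942% in the KO-labelled library and 0.868% in Control, against 5.11% and 5.19% in Fcnb, and whether these move the ribosomal protein share was not tested. Kit had 12.8 CPM in the KO-labelled and 34.8 CPM in the Control cells of this class. Of the classes found almost only in Control, the antigen-presenting Cd74 class had 21.6% in 56 cells and the basophil Prss34 class 30.7% in 337 cells.

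Of the 80 members, 77 were measured in the whole libraries and in each of the 6 classes, with a level of 30 CPM or more in at least 1 library and 100 or more UMIs summed over the libraries. The other 3 were the paralogs Rpl10l, with 0 UMIs in both libraries, Rpl3l, with 49 and 38 UMIs in the KO-labelled and Control libraries, and Rpl39l, with 21 and 123 UMIs. The differences are given as log2 of the KO-labelled over the Control CPM after adding 10 to both. The median of the 77 members was -0.03 in the whole libraries and 0.00 over all 4600 measured genes. By class the median member lay between -0.04 (Ly86) and 0.04 (Gstm1/CD63), and no scaling moved it by 0.1. In Hba-a2 it was 0.03 as reported, but -0.01 with TMM or median-of-ratios scaling and -0.02 without the 5% of cells with most UMIs. That cut, set per library, left 170 of 318 KO-labelled and 152 of 294 Control cells of this class.

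No member was 1.5-fold apart from the median member in the whole libraries, a limit passed by 4.46% (higher) and 1.61% (lower) of all measured genes. None was in any class either, whereas 4.17% of the 3336 genes measured in all 6 classes were higher, and 2.97% lower, by that much in at least 1 class. The members thus kept close together, and smaller differences were read with a limit of 1.25-fold, chosen after the values were seen. At that limit 6 members (Rpl35, Rpl38, Rps21, Rps29, Rpl37 and Rps28) were lower in the KO-labelled library than the median member and none was higher, against 4.57% of all genes lower and 10.1% higher. Their coding lengths lay between 171 and 372 bases. By class, 9 members were lower in CD34 (5.49% of all genes), 6 in Car1 (7.49%), 7 in Hba-a2 (6.28%), 4 in Pf4 (11.7%), 7 in Ly86 (2.66%) and 10 in Gstm1/CD63 (3.96%). Rpl35, Rpl38, Rps21 and Rps29 were lower in all 6 classes, which 0.42% of the 3336 genes measured in all 6 were. The other members lower in at least 2 classes were Rpl37, Rpl37a, Rpl39, Rpl41, Rps27 and Rps28.

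Among large-subunit proteins, Rpl35 (ENSMUSG00000062997, GRCm38 chromosome 2, 39001580 to 39005624, minus strand), which sits at the exit of the tunnel through which the new peptide leaves, was the lowest. It had 1527 CPM in the KO-labelled library and 2113 CPM in Control, a ratio of 0.723 (0.719 to 0.726). The KO-labelled value lay below Control in every class, with 1560 and 2132 CPM in CD34, 1598 and 2158 in Car1, 1589 and 2003 in Hba-a2, 1294 and 1893 in Pf4, 1555 and 2114 in Ly86, and 1637 and 2188 in Gstm1/CD63. Even the highest class of the KO-labelled library stood below the lowest class of Control. The classes come from the same libraries and do not repeat the comparison, and how many of all genes lack such overlap was not counted. Rpl38 (ENSMUSG00000057322, chromosome 11), needed in mice for the translation of certain Hox transcripts, had 2030 CPM in the KO-labelled library and 2750 CPM in Control, a ratio of 0.738 (0.735 to 0.742). Its class values ran from 1786 to 2230 CPM in the KO-labelled library and from 2407 to 2955 CPM in Control, again without overlap. Rpl37 had 3005 CPM in the KO-labelled library and 4003 CPM in Control. Rpl39, which lines the exit tunnel, had 4190 and 5228 CPM, and Rpl41 3977 and 4836 CPM.

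Among small-subunit proteins the lowest were Rps21, Rps29 and Rps28. Rps21 (ENSMUSG00000039001, chromosome 2) had 2606 CPM in the KO-labelled library and 3507 CPM in Control, a ratio of 0.743 (0.740 to 0.746). Over the classes of these same libraries it ran from 2258 to 2938 CPM in the KO-labelled library and from 3037 to 3781 CPM in Control. Every Control class thus stood above every KO-labelled one. Rps29 (ENSMUSG00000034892, chromosome 12), a zinc-binding protein mutated in some patients with Diamond-Blackfan anaemia, had 4221 and 5637 CPM, a ratio of 0.749 (0.746 to 0.751). Its log2 differences by class lay between -0.44 in Ly86 and -0.33 in Car1. Rps28 had 1663 CPM in the KO-labelled library and 2129 CPM in Control, and Rps27, a zinc-finger protein, 2072 and 2638 CPM.

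**Figure D2:**
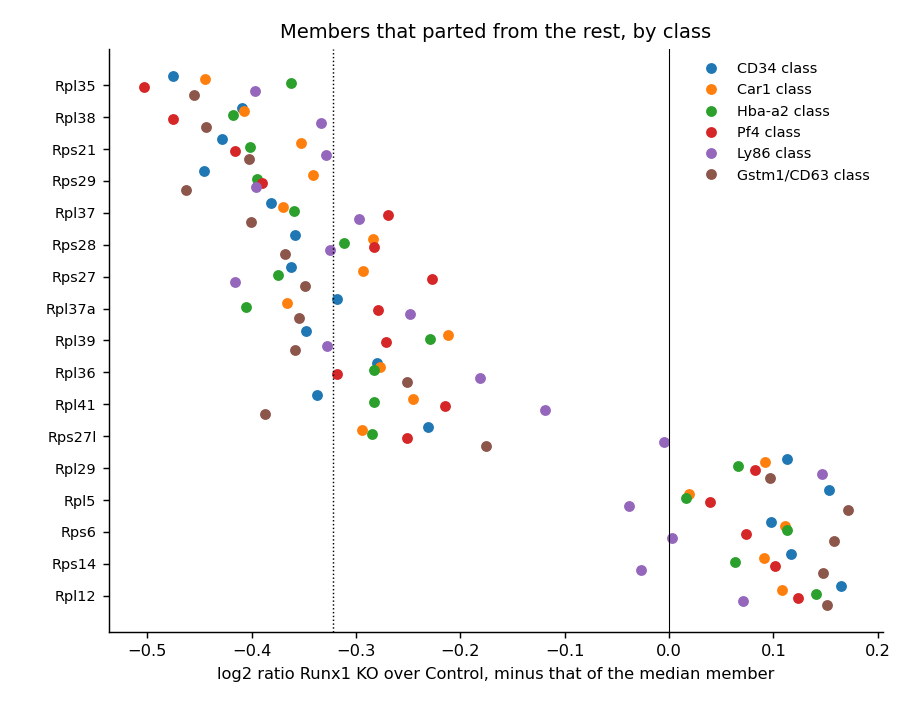
Log2 difference of the library labelled Runx1 KO from Control, minus that of the median member (x axis), for the 12 lowest and 5 of the 6 highest members (y axis), with 1 point per class. The dotted line marks 1.25-fold lower; all 6 classes of Rpl35, Rpl38, Rps21 and Rps29 lie beyond it, and no class of these high members does.

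Coding length ordered the members' differences. The relation was noticed in these values, so it is given as a description: Spearman's rho between coding length and the log2 difference was 0.72 over 77 members in the whole libraries and 0.65 to 0.75 in the classes, which share the same genes and libraries. With annotated transcript length rho was 0.52 and with the member's own level 0.38. Annotated transcripts need not be those of these cells: Rps15a is listed with 5130 bases and Rps20 with 3706, at coding lengths of 393 and 360. All 10 measured members with a coding length under 300 bases (Rpl37, Rpl37a, Rpl38, Rpl39, Rpl41, Rps21, Rps27, Rps27l, Rps28 and Rps29) were lower in the KO-labelled library, by log2 differences from -0.44 to -0.24. The 15 members of 300 to 400 bases had a median of -0.14, and the 31 members of 400 to 600 bases a median of 0.01. Rpl35, with 372 coding bases, was the lowest of all, and Rplp1, with 345, had a log2 difference of -0.03, so length alone did not order every member.

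**Figure D3:**
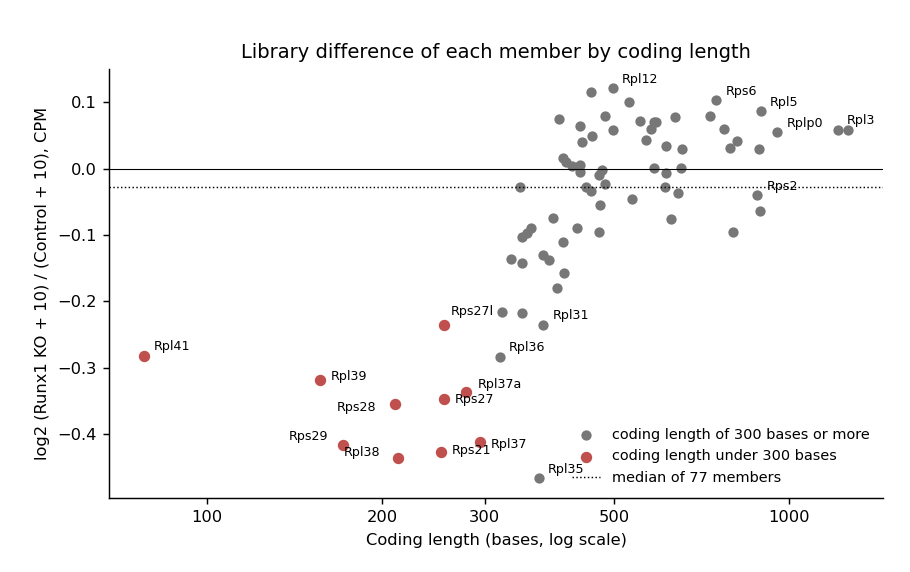
Log2 difference of the library labelled Runx1 KO from Control (y axis) against coding length in bases (x axis, log scale) for 77 measured members, 1 point each. The 10 members under 300 bases, in red, all lie at -0.24 or below, and members of 600 bases or more lie around 0.

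Together the 10 short members took 2.77% of UMIs in the KO-labelled library and 3.56% in Control, a ratio of 0.777 (0.776 to 0.778). The other 67 took 27.66% and 27.83%, a ratio of 0.994. In the classes the ratio of the short members lay between 0.783 in Gstm1/CD63 and 0.812 in Car1, so they were lower in each. Short members made up 9.10% of the ribosomal protein UMIs of the median KO-labelled cell, with 90% of cells between 8.08% and 10.7%. In the median Control cell they made up 11.4%, with 90% of cells between 10.2% and 13.1%, so these ranges overlapped only between 10.2% and 10.7%. The short set was chosen after the members' values were seen, so a lower share in KO-labelled cells followed from that choice. Cells of the same library are not replicates, and ranges over cells were not taken for other short genes. The narrow overlap is thus a description and does not test a difference between the groups. In cells of 10000 to 30000 UMIs alone the medians were 9.10% in the KO-labelled library and 11.3% in Control, and the ratio of the short members' share of all UMIs was 0.759. By class, this depth range moved the ratio most in Hba-a2, from 0.804 to 0.690. There it kept only 50 of 318 KO-labelled and 34 of 294 Control cells. In cells with under 10% mitochondrial UMIs the whole-library ratio was 0.779. Depth was not matched within the range, and whether depth or cell quality moves the ratio was not tested.

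In the whole libraries the short ones among other genes were lower as well, but by coding length less so than the members. The 167 other measured genes with a coding length under 300 bases had a median log2 difference of -0.13, against -0.35 for the 10 members, and 126 of them (75.4%) lay below 0. Between 300 and 400 bases the medians were -0.14 for 15 members and -0.04 for 220 other genes. The gap was widest in Ly86, with -0.37 for the members under 300 bases and -0.02 for 161 other genes. In that class the longest other genes were the lower ones, with a median of -0.08 over 920 genes of 2000 coding bases or more.

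By transcript length, looked at first, members and other genes lay closer together in the whole libraries. The 39 other measured coding genes with a transcript under 500 bases had a median log2 difference of -0.26, and 33 of them (84.6%) lay below 0. The 11 members of that length had a median of -0.28. Of the 39, 3 are copies of ribosomal protein genes (Rps27rt, Rps12-ps3 and Rpl36a-ps1), and the median of the other 36 was also -0.26, with 31 below 0. Between 500 and 700 bases the medians were -0.10 for 135 other genes and -0.10 for 18 members, and at 2000 bases or more 0.01 for 2737 other genes. Uqcr11, a subunit of respiratory complex III, had 360 CPM in the KO-labelled library and 471 CPM in Control, and Atp5e, of the ATP synthase, 658 and 778 CPM. Mrpl33, of the mitochondrial ribosome, had 234 and 336 CPM. The 6 exceptions were the late neutrophil gene S100a8, with 2179 and 597 CPM, Wfdc21, with 92.2 and 24.6 CPM, Ifi27l2a, with 35.8 and 8.91 CPM, and Hcst, Rpl36a-ps1 and Mrpl52, with log2 differences of 0.14, 0.09 and 0.03. In the Ly86 class the other short genes had a median of -0.08 over 40 genes, against -0.24 for the 11 members. In the other 5 classes the other short genes had medians of -0.36 to -0.27, and the members of -0.31 to -0.21. Between 500 and 700 bases the gap was widest in Gstm1/CD63, with 0.02 for members and -0.12 for other genes. Whether RNA quality, library preparation or genotype moved with transcript length was not tested, and with 1 library each they cannot be told apart.

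**Figure D4:**
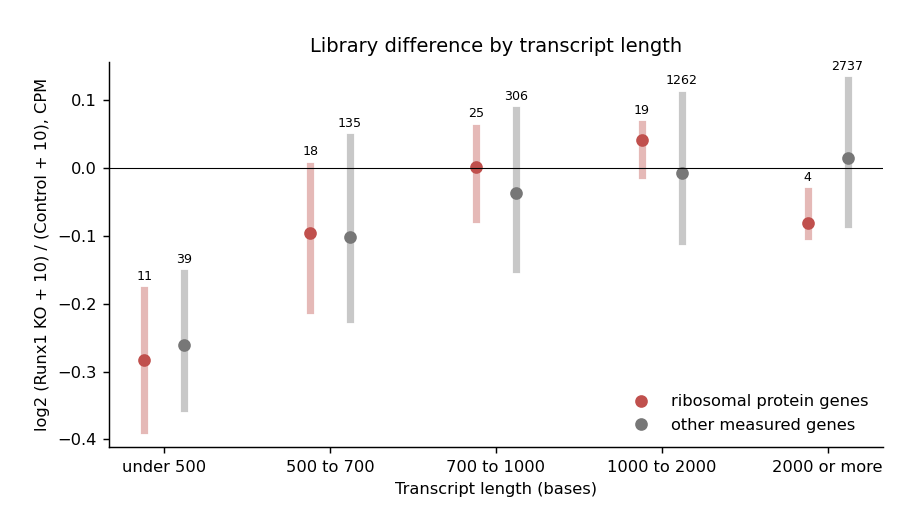
Median log2 difference of the library labelled Runx1 KO from Control (circles, y axis) with quartiles (bars), by transcript length in bases (x axis), for ribosomal protein genes in red and other measured coding genes in grey; numbers count genes. Under 500 bases both sets lie near -0.28 and -0.26; the last bin holds only 4 ribosomal protein genes.

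Among the 6 highest members relative to Control were Rpl12, Rps14, Rps6, Rpl5 and Rpl29, all within 1.25-fold of the median member. Rpl12, at the base of the ribosomal stalk, had 4672 CPM in the KO-labelled library and 4294 CPM in Control, a ratio of 1.09 (1.08 to 1.09). Its log2 difference was above 0 in all 6 classes, from 0.03 in Ly86 to 0.19 in CD34. Rps6, the target of S6 kinase, had 3575 and 3328 CPM. Rps14, whose loss of 1 copy underlies the anaemia of the human 5q deletion syndrome, had 4502 and 4157 CPM. The member furthest above the median in any class was Rpl10 in Pf4, with 2771 and 2222 CPM and a log2 difference of 0.32, where 18.6% of all genes were at least 1.25-fold higher. No member was that much higher in the other 5 classes, where 8.09% of genes were in at least 1 of them. Rpl10, which joins the large subunit late in its assembly, lay between -0.10 and 0.06 in the other 5 classes. In Hba-a2 the X-linked Rps4x was highest, with 4983 and 4358 CPM, and in Ly86 Rps2, with 6358 and 5658 CPM. In Gstm1/CD63, Rpl4 was highest, with 2011 and 1663 CPM. In Car1 and Hba-a2, Rps3, at the entry of the messenger channel, was among the 3 highest, with 4905 and 4458 CPM in Car1. Rpl3, of the peptidyl transferase region, was among the 3 highest in Pf4, with 3633 and 3298 CPM.

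Members that act together had near-equal shares in the libraries, whereas the X-linked ones, grouped by chromosome only, had a lower summed share in the KO-labelled library. The stalk proteins Rplp0, Rplp1 and Rplp2, which recruit the elongation factors, held 1.502% of UMIs in the KO-labelled library and 1.52% in Control. Within them Rplp0 had 6118 and 5889 CPM, Rplp1 5805 and 5920 CPM, and Rplp2 3098 and 3421 CPM. Rpl5 and Rpl11, which with the 5S RNA bind the p53 regulator Mdm2 when ribosome assembly is disturbed, held 0.644% and 0.641%. Rpl5 had 2624 CPM in the KO-labelled library and 2471 CPM in Control, and Rpl11 3813 and 3937 CPM. The X-linked members Rpl10, Rpl36a, Rpl39 and Rps4x held 1.45% and 1.58%. Among them Rpl39 and Rpl36a were lower (log2 differences of -0.32 and -0.22), while Rps4x was at 0.03 and Rpl10 at -0.04. Large-subunit members held 16.7% and 17.3% of UMIs (ratio 0.968), and small-subunit members 13.7% and 14.1% (ratio 0.970), so the balance of the subunits was alike in the libraries.

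Of the 18 members known to be mutated in Diamond-Blackfan anaemia, all were measured, and 3 (Rps28, Rps29 and Rpl35) were at least 1.25-fold lower than the median member, beside 6 of all 77 members and 4.57% of all genes. Their median log2 difference was -0.08, against -0.03 for all members, and the list includes the short members Rps27, Rps28 and Rps29 and the lowest member, Rpl35. Rps19, the gene most often mutated in patients, had 5443 CPM in the KO-labelled library and 5464 CPM in Control. The paralog Rps27l, a p53 target, had 575 and 680 CPM.

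Of 8 ribosomal protein genes outside the symbol rule, Rps3a1 had 6366 CPM in the KO-labelled library and 6208 CPM in Control, Fau 4139 and 4127 CPM, and Rack1 3207 and 3049 CPM. Another 15 genes with TOP transcripts, mostly translation factors, held 2.77% and 2.72% of UMIs. None of them was 1.25-fold apart from the median ribosomal protein member in the whole libraries. The furthest above it was Tpt1, with 6198 and 5233 CPM, and the furthest below Npm1, with 2153 and 2534 CPM. In Pf4 both passed that limit, Tpt1 with 7191 CPM in the KO-labelled library and 5471 CPM in Control, and Npm1 with 1482 and 2036 CPM. Npm1 was also lower by that limit in Hba-a2, with 2959 and 3786 CPM. The 72 measured mitochondrial ribosomal protein genes had a median of -0.07. The 25 ribosome biogenesis genes, which make rather than form the ribosome, held 0.307% in the KO-labelled library and 0.446% in Control of the UMIs of the Pf4 class, and their 21 measured members had a median log2 difference of -0.41 there. In Gstm1/CD63 the 20 measured biogenesis genes had a median of 0.09. The median ribosomal protein member was at -0.04 in Pf4 and 0.04 in Gstm1/CD63.

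Between cell classes most members kept close to the median member, some ranged more widely, and the deviations largely recurred in both libraries. For each library a member's log2 CPM in a class was set against its mean over the 6 classes and the median member. No member was 1.5-fold apart in the same direction in both libraries in any class, whereas 13.9% of the 3336 genes were higher and 7.94% lower in at least 1 class. At 1.25-fold, 7 members were, all in the Hba-a2 class, later erythroid than Car1. Rpl13a, Rpl31, Rplp1, Rps2 and Rps27l were higher there, as 25.5% of all genes were, and Rpl39 and Rps24 lower, as 9.02% were. In the other 5 classes no member passed that limit, which 23.3% of genes did upwards and 22.7% downwards in at least 1 of them. The deviations of the 77 members in the KO-labelled library correlated with those in Control at a Pearson's r of 0.82 (Pf4 and Ly86) to 0.97 (Hba-a2), across genes, which are not independent replicates.

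Rpl13a, known in human monocytes for leaving the ribosome to silence inflammatory transcripts, had the widest range, taken as the smaller of the libraries. Its deviation ranged over 0.82 log2 units in the KO-labelled library and 0.99 in Control, and that of Rps2 over 0.93 and 0.65. In the KO-labelled library Rpl13a had 607.5 CPM in Hba-a2, 525 in Car1, 476 in CD34, 448 in Pf4, 386 in Gstm1/CD63 and 357 in Ly86. In Control it had 642 CPM in Hba-a2, 575 in Car1, 440.2 in CD34, 440.1 in Pf4, 408 in Ly86 and 349 in Gstm1/CD63, so it stood highest in erythroid and lowest in myeloid classes in both. Rps27l had 803 CPM in Hba-a2 of the KO-labelled library and 960.2 CPM in that of Control, against 488 to 697 CPM and 594 to 722 CPM in the other 5 classes. Rps2 had 7385 CPM in Hba-a2 of the KO-labelled library and 6720 CPM in that of Control, and its lowest values, 3627 and 4245 CPM, in Pf4. Rps24, mutated in Diamond-Blackfan anaemia, was lowest in Hba-a2 in both libraries, with 5896 and 5431 CPM, against 7388 to 9261 CPM and 7616 to 8543 CPM in the other classes. Rps14 and Rpl5 were highest relative to other members in Pf4 and lowest in the myeloid classes Ly86 and Gstm1/CD63. Rpl18 and Rpl13 had the narrowest ranges, 0.04 log2 units in the KO-labelled library and 0.05 in Control for each.

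**Figure D5:**
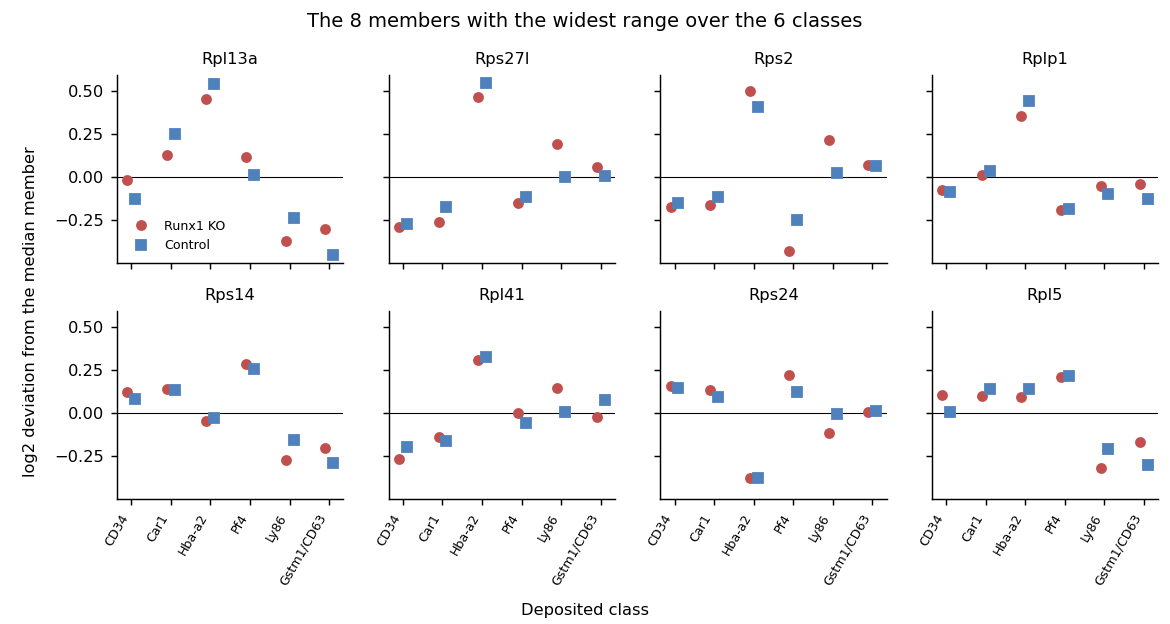
Log2 deviation from the median member and from the gene's own mean over 6 classes (y axis) in each class (x axis), for the 8 members with the widest range; red circles are the library labelled Runx1 KO, drawn left of the blue squares of Control. The points of both libraries follow each other, with Rpl13a, Rps27l, Rps2 and Rplp1 highest and Rps24 lowest in Hba-a2.

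In the Ltf class most members fell together relative to the Fcnb class: the median member was lower by a log2 difference of -1.77 in the KO-labelled library and -1.67 in Control. This comparison was added after the class's share was seen. Against that median, Rps9 and Rps27 were at least 1.25-fold higher in both libraries, as 84.8% of all genes were, and Rps2 and Rpl36a at least 1.25-fold lower, as 1.16% were. At 1.5-fold Rps9 was higher (76.9% of all genes) and no member lower (0.6%). Rps9 had 2378 CPM in Ltf and 4440 CPM in Fcnb cells of the KO-labelled library, and 2041 and 4209 CPM in Control. Rps2 had 1284 CPM in Ltf and 6672 CPM in Fcnb cells of the KO-labelled library, and 1255 and 5993 CPM in Control. With each cell weighing the same, 7 members were higher and 6 lower by that limit, these 4 included. In summed UMIs such as these, fewer cells with many ribosomal protein transcripts and fewer transcripts per cell cannot be told apart, except by the per-cell shares given above.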

How the data were processed

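The deposited matrix holds counts, UMIs per gene and cell, of 1 library per genotype made with the 10x Genomics 3′ kit, version 3, per the labels. The deposited cell annotation adds a mitochondrial fraction, a size factor (a ratio of a cell's UMIs to a constant) and 2 other columns used as names, the library and the class. Cell Ranger and mm10 are named in the submitters' processing notes; the handling of reads that match several loci is not stated in the labels, so levels of members with near-identical copies (Rps27 and Rps27rt, Rpl36a and Rpl36al, and the many processed pseudogenes) are uncertain. The library called wild type in the annotation was taken as Control. Summed UMIs equalled the annotated totals in all 14795 cells.

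UMIs were summed by library and deposited class and scaled to CPM; log2 ratios used a pseudocount of 10. A gene counted as measured with 30 CPM or more in at least 1 library and 100 or more UMIs in all. Classes were compared with at least 200 cells in each library, and limits were 1.5-fold and 1.25-fold. The members, gene lists and naming rule were chosen with earlier results of these data known; the 1.25-fold limit, the 300-base and 500-base splits and the Ltf comparison were chosen after the values were seen. The rule named the 6 highest and lowest members over all cells, the 3 highest and lowest in each class, the 8 with the widest range over classes, and every stalk, paralog, X-linked and 5S member; others named were chosen after their values were seen, and a few items the rule named are not reported here. Shares carry exact binomial and ratios exact Poisson 95% intervals, which cover counting error only. Lengths and positions came from GENCODE M21 (80 of 80 members matched) and promoters from RefSeq (60 of 80). No doublet caller was run; leaving out the 5% of cells with most UMIs was an alternative. Scripts ran in Python 3.11.15 with numpy 2.4.6 and scipy 1.17.1, with TMM factors from edgeR 4.0.16, and were tested on simulated data.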

Additional observations from a re-analysis of the deposited data

Results flagged for a closer look

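The ribosomal protein share of the 6 compared classes lay on opposite sides of equality. The ratio of the KO-labelled to the Control share was 1.002 in CD34, 1.005 in Gstm1/CD63 and 1.008 in Hba-a2, and 0.996 in Car1, 0.964 in Ly86 and 0.961 in Pf4. With 1 library per group every sample of a class moved its own way by construction, and the difference between classes was not tested.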

How the results depend on the processing

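No paired analysis was possible because each group had 1 library and no result came from a test. The ratios of shares, KO-labelled over Control, are given in the order whole libraries, equal class mix, CD34, Car1, Hba-a2, Pf4, Ly86 and Gstm1/CD63. As reported they were 0.969, 0.990, 1.002, 0.996, 1.008, 0.961, 0.964 and 1.005. With each cell weighing the same they were 0.944, 0.968, 0.999, 0.984, 0.921, 0.952, 0.941 and 1.006, turning CD34 and Hba-a2; 35 KO-labelled Hba-a2 cells (11.01%) and 8 Control ones (2.72%) had shares under 10%. Without cells of 10% mitochondrial UMIs or more they were 0.972, 0.992, 1.003, 0.997, 1.019, 0.960, 0.964 and 1.006. Leaving out the 5% of cells with most UMIs in each library kept 170 of 318 KO-labelled and 152 of 294 Control cells of Hba-a2. The ratios were then 0.963, 0.984, 1.005, 0.985, 0.976, 0.961, 0.967 and 1.010, turning Hba-a2. Without mitochondrial and globin UMIs in the denominator they were 0.969, 0.991, 1.000, 0.996, 1.019, 0.957, 0.966 and 1.005. With genes outside the symbol rule and pseudogenes they were 0.971, 0.992, 1.004, 0.997, 1.010, 0.964, 0.966 and 1.007. The range of 10000 to 30000 UMIs, chosen after seeing the data, kept only 50 of 318 KO-labelled and 34 of 294 Control cells of Hba-a2. In cells of that range the ratios were 0.948, 0.957, 0.994, 0.970, 0.916, 0.912, 0.946 and 1.003, turning CD34 and Hba-a2. Without members of under 300 coding bases, also chosen after seeing the data, they were 0.994, 1.015, 1.029, 1.018, 1.033, 0.984, 0.987 and 1.035, turning the equal mix and Car1. The cause of the other turns was not tested. Of the share ratios, Pf4, Ly86, Gstm1/CD63 and the whole libraries kept their side of 1 under these settings.

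The 6 members lower by 1.25-fold in the whole libraries were the same without high-mitochondrial cells. Without the 5% of cells with most UMIs they were among 7. They were also the same under TMM and median-of-ratios scaling, a pseudocount of 1 and no minimum, but these settings could hardly change the list. A scaling factor moves all members nearly alike and so drops out against the median member. At these levels a pseudocount of 1 changes little, and dropping the minimum can add only members with few UMIs. Counts of members apart between libraries and between classes stayed within 1.5 times under those settings. Weighing each cell alike gave 7 members higher and 6 lower in Ltf against Fcnb, where 2 and 2 were reported. Over 180 values of 30 named members, 24 moved past their counting interval. A turn was counted only for members at least 1.25-fold from the median member, which were the 6 above, and none of these turned. A change of sign in members nearer to the median was not counted. Few UMIs limit Rpl3l, Rpl10l and Rpl39l, the depth of the cells used moves the class share ratios as given above, and the single library per group limits all comparisons.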
